A study of Mus musculus with 4 samples.

Results

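The 10 genes described here were adipogenic regulators and lipid genes, namely Pparg, Cebpa, Cebpb, Cebpd, Zfp423, Lpl, Cd36, Fabp4, Plin2 and Adipoq. They were picked by gene symbol out of 32285 genes in the count tables, and each symbol matched 1 row. Their UMIs, the molecule counts of droplet single-cell RNA sequencing, were read per library and per class of cells.

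The libraries came from tibial muscle of Nse-Bmp4 mice (C57BL/6, 6 to 8 weeks old), which form heterotopic bone in soft tissue after injury and also spontaneously with age. The transgene places murine Bmp4 under the rat neuron-specific enolase promoter, and every library, the uninjured one included, carried it. The 4 libraries were uninjured muscle (Uninjured) and muscle taken 1, 3 or 7 days after injury (dpi) with cardiotoxin, a venom toxin that destroys myofibres. Each library was a single pool of 3 muscles after collagenase digestion, so a time point and its library cannot be told apart and no test between time points was possible. All intervals below are 95% intervals that cover counting error only.

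Mesenchymal progenitors of muscle can become adipocytes as well as cartilage and bone cells, which makes adipogenic genes a useful readout in a model of heterotopic ossification. In the textbook sequence, Cebpb and Cebpd are induced early, Pparg and Cebpa then act as the main adipogenic regulators, and Zfp423 marks committed preadipocytes. Lpl, Cd36, Fabp4 and Plin2 release, take up, carry and store fatty acids, and Adipoq encodes the hormone adiponectin of mature adipocytes. Several of these genes have known roles outside fat, with Cebpb and Plin2 in macrophages and Fabp4 and Cd36 in capillary endothelium.

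After filtering, 52862 cells remained, between 9644 and 20305 per library, and the median depth over all barcodes was 8629, 5562, 4214 and 3083 UMIs in Uninjured and at 1, 3 and 7 dpi. Cells were assigned to classes by marker panels of 8 genes, none of which was one of the 10 genes. The mesenchymal gate held 8409, 3790, 6165 and 11047 cells in Uninjured and at 1, 3 and 7 dpi, and all 8 of its markers, Prrx1 and Pdgfra among them, were detected in each library. The monocyte and macrophage gate held 262, 1630, 831 and 299 cells, the endothelial gate only 23, 65, 118 and 72, and the chondrocyte gate 4206 cells at 7 dpi and none before. No cell in any library met the adipocyte gate of Cidec, Plin1, Plin4, Lep, Acvr1c, Cidea, Adrb3 and Pck1. At least 3 of these 8 markers were found in 1, 0, 2 and 0 cells in Uninjured and at 1, 3 and 7 dpi. Those cells did not have the lead of 2 markers that a class also needed. The result describes this gate and does not count the adipocytes of the muscle. Pairs of libraries shared between 30 and 95 barcodes.

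The upstream sequences of Cebpb and Cebpa are shown because these C/EBP genes of 1 family differed in the size of their change, 4.33-fold lower for Cebpb and 1.47-fold lower for Cebpa at 7 dpi than in Uninjured mesenchymal cells. RefSeq windows on GRCm38.p6 were found for 7 of the 10 genes, and those of Cebpd, Lpl and Fabp4 were not among them. The 250 bases upstream of the listed start are given 5′ to 3′ on the strand of the gene, for Cebpb at chr2:167688665-167688914 and for Cebpa at chr7:35119043-35119292, both on the plus strand. Capitals mark TGACG or its reverse complement, the core of the cAMP response element bound by CREB and ATF factors, and TATAAA, the TATA box.
Cebpb: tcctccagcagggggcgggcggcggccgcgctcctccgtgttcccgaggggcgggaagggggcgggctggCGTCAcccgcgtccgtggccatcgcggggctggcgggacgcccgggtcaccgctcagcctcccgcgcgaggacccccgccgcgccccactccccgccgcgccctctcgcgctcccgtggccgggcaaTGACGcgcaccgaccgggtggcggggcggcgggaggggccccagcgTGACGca
Cebpa: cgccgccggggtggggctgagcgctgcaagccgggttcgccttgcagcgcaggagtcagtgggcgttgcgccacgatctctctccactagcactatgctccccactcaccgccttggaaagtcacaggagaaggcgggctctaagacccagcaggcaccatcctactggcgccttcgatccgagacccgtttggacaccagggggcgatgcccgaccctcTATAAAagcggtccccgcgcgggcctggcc

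The Cebpb window held 3 copies of TGACG on either strand and the Cebpa window none. TGACG occurred in 17.8% of 32851 such windows, searched on both strands. TATAAA occurred once in the Cebpa window and in 12.4% of all windows. A looser C/EBP pattern, TTNNGNAA, was found in neither window and in 36.8% of all windows. The PPAR direct repeat, taken as 2 AGGTCA motifs with 1 base between them, was in none of the windows of the 7 genes and in 0.0335% of all windows. The matches describe letters only, and no measurement of factor binding was used here.

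In mesenchymal cells the early regulators Cebpb and Cebpd and the lipase Lpl were lower at each later time point, Pparg and Cebpa were within 2-fold of Uninjured at 7 dpi, and Fabp4 and Cd36 ended above their uninjured level. Levels are given as UMIs per 1000000 UMIs of the gated cells (CPM). The counts of genes below use a rule of a 2-fold difference between the CPM of 2 libraries and at least 20 UMIs in one of them, and no p-value is attached to them.

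**Figure D1:**
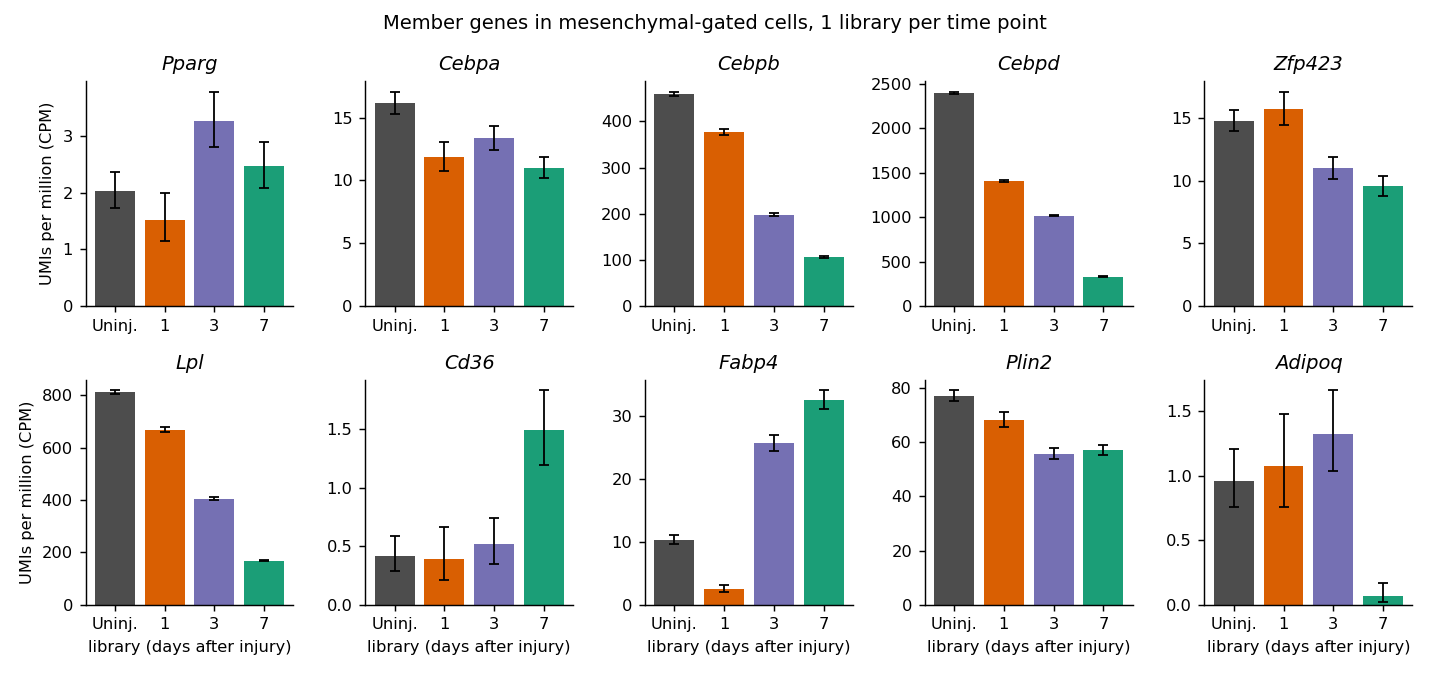
Bars show the CPM of each gene in mesenchymal-gated cells of the 4 libraries and error bars show exact Poisson 95% intervals (counting error only). Cebpb, Cebpd and Lpl step down from Uninjured to 7 dpi, whereas Fabp4 is lowest at 1 dpi and highest at 7 dpi. Each panel has its own axis from 0.

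Cebpb, an early C/EBP factor also induced by inflammatory signals (chr2:167688915-167690418 on GRCm38), had levels of 460 (455 to 464), 378 (372 to 384), 198 (195 to 202) and 106 (104 to 109) CPM in Uninjured and at 1, 3 and 7 dpi. Each library was below the one before it, and the level at 7 dpi was 4.33-fold below Uninjured (4.22 to 4.45). Cebpd, its close relative (chr16:15887286-15891031), was at 2401, 1405, 1019 and 329 CPM. Its level was 7.29-fold lower at 7 dpi than in Uninjured (7.19 to 7.40), and the largest step came between 3 and 7 dpi at 3.10-fold (3.05 to 3.15). A UMI of Cebpd was found in 97.8%, 96.6%, 92.9% and 53.7% of mesenchymal cells. After each cell was thinned to 1000 UMIs these shares were 75.6%, 66.4%, 61.9% and 22.9%, so the order of the libraries did not change with depth.

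Immediate early and dissociation-responsive genes, a list added after the data were seen, were also lower in sum at later time points. All 11 of 11 listed genes, Fos, Jun and Atf3 among them, were detected, and their summed level in mesenchymal cells was 29717, 19373, 10974 and 9278 CPM. Single genes did not all follow the sum. Egr1, Hspa1b and Zfp36 were higher at 1 dpi than in Uninjured, and Fos and Fosb were higher at 7 than at 3 dpi. The other listed genes were lower in each of these steps. The monocyte and macrophage panel within the mesenchymal gate did not follow the order of the sum, with 122, 194, 137 and 247 CPM and 7 or 8 of 8 genes detected (Fcgr1 was at 0 in Uninjured). The part of either list in the Cebpb and Cebpd values was not tested.

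Zfp423, a zinc-finger factor of preadipocyte commitment (chr8:87661810-87959595, minus strand), was at 14.8 (13.9 to 15.7), 15.7 (14.5 to 17.1), 10.99 (10.1 to 11.9) and 9.57 (8.80 to 10.4) CPM. Uninjured and 1 dpi overlapped in their intervals, and 7 dpi was 1.54-fold below Uninjured (1.40 to 1.71). Monocytes and macrophages had at most 4 Zfp423 UMIs in any library, against 557 to 1168 in mesenchymal cells. The endothelial sums had 2 to 7 Zfp423 UMIs, too few for an order against mesenchymal cells.

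Pparg, the nuclear receptor that directs adipocyte differentiation (chr6:115360951-115490399), was rare in mesenchymal cells, with 160, 54, 183 and 149 UMIs or 2.02 (1.72 to 2.36), 1.53 (1.15 to 1.99), 3.27 (2.81 to 3.78) and 2.47 (2.09 to 2.90) CPM. The lowest library was 1 dpi and the highest 3 dpi, which stood 2.14-fold above it (1.57 to 2.96). Without the 14 cells richest in Fabp4 described below, 3 dpi was at 2.51 CPM of Pparg (2.11 to 2.96), a log2 ratio to 1 dpi of 0.72 and so under 2-fold. With cells thinned to 1000 UMIs the ratio of 3 to 1 dpi was 1.26. That of 1 dpi to Uninjured became 2.47 in place of 0.754. The thinned Pparg sums of Uninjured and 1 dpi each had fewer than 20 UMIs, under the minimum set for a ratio. The thinned values are therefore too uncertain to show an effect of depth, and the order of these libraries stays uncertain. At 7 dpi Pparg stood at 1.22 times its Uninjured level, with an interval of 0.970 to 1.54 that spans equality. Cebpa, its partner factor (chr7:35119293-35121928), was at 16.1 (15.3 to 17.1), 11.8 (10.7 to 13.0), 13.3 (12.4 to 14.3) and 11.01 (10.2 to 11.9) CPM. Uninjured was the highest library for Cebpa, and 7 dpi was 1.47-fold below it (1.33 to 1.61), against the 4.33-fold of Cebpb. The adventitial subset described below had the opposite direction for Cebpa.

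Lpl, the lipase that releases fatty acids from lipoproteins (chr8:68880491-68907448), was at 813 (807 to 819), 669 (660 to 677), 405 (400 to 410) and 169 (166 to 172) CPM. It was lower at every later time point, ending 4.81-fold below Uninjured (4.71 to 4.91). Plin2, the lipid droplet coat protein of many cell types (chr4:86648386-86670060, minus strand), differed little by comparison, with 77.1, 68.2, 55.8 and 57.0 CPM. At 7 dpi Plin2 was 1.35-fold below Uninjured (1.30 to 1.41), and 3 and 7 dpi overlapped in their intervals. Thinned to 1000 UMIs, 6.83%, 6.45%, 6.41% and 5.58% of mesenchymal cells carried a Plin2 UMI.

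Fabp4, the fatty acid carrier known from adipocytes and capillary endothelium (chr3:10204088-10208576, minus strand), was at 10.3 (9.64 to 11.1), 2.52 (2.02 to 3.10), 25.7 (24.4 to 27.1) and 32.6 (31.2 to 34.1) CPM. It was 4.11-fold lower at 1 dpi than in Uninjured (3.30 to 5.17) and 10.2-fold higher at 3 dpi than at 1 dpi (8.24 to 12.8). Both ratios were smaller without a few cells rich in Fabp4, described below. Cd36, a fatty acid translocase (chr5:17781690-17888801, minus strand), had only 33, 14, 29 and 90 UMIs, or 0.418, 0.396, 0.518 and 1.49 CPM. Its level at 7 dpi was 3.57-fold above Uninjured (2.37 to 5.50). The summed endothelial panel in the mesenchymal gate was 3.91, 3.73, 5.66 and 16.4 CPM, highest at 7 dpi as well, with all 8 of its genes detected there and Emcn at 0 at 1 dpi. The part of these transcripts in the Fabp4 and Cd36 values was not tested.

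Counted over the 10 genes, 0 were at least 2-fold higher and 1 (Fabp4) at least 2-fold lower at 1 dpi than in Uninjured, where 9.38% and 5.39% of 14759 genes were. With TMM scaling those background shares were 7.06% and 7.74%. Between 1 and 3 dpi, 2 genes were higher (Pparg and Fabp4) and 0 lower, beside 7.22% and 5.99% of all genes. From 3 to 7 dpi, 1 was higher (Cd36) and 3 lower (Cebpd, Lpl and Adipoq), beside 11.9% and 7.68%. At 7 dpi against Uninjured, 2 were higher (Cd36 and Fabp4) and 4 lower (Cebpb, Cebpd, Lpl and Adipoq), beside 18.6% and 11.4%. The median log2 ratio of 7 dpi to Uninjured was -0.59 over the 10 genes and 0.08 over all 15554 genes.

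More than 50% of the Fabp4 signal of mesenchymal cells came from very few cells in Uninjured and at 3 dpi. In Uninjured, 131 of 8409 cells carried 817 Fabp4 UMIs, and the 3 richest cells, with 221, 170 and 105 UMIs, held more than 50% of them. At 3 dpi the 3 richest of 6165 cells, with 381, 187 and 175 UMIs, again held more than 50% of 1438. At 1 dpi 67 cells carried 89 UMIs, no cell had more than 7, and 23 cells were needed to reach 50%. At 7 dpi 906 of 11047 cells carried a UMI, the richest had 64, and 150 cells were needed to reach 50%.

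**Figure D2:**
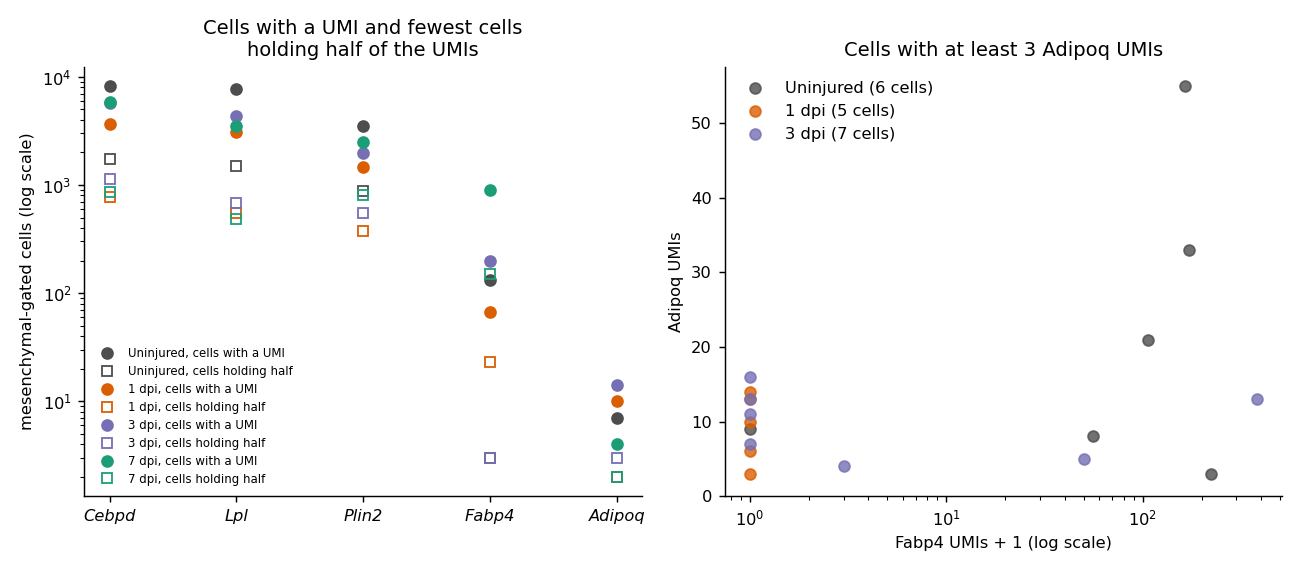
Left, mesenchymal-gated cells with at least 1 UMI (circles) and the fewest cells that hold 50% of the UMIs (squares) for 5 genes and 4 libraries, on a log axis. Right, Fabp4 UMIs plus 1 (log axis) against Adipoq UMIs for the 18 kept cells with at least 3 Adipoq UMIs, of which 10 lie at 0 Fabp4 UMIs.

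Mesenchymal cells with at least 10 Fabp4 UMIs numbered 6, 0, 14 and 19. This cell set was drawn on Fabp4, so its Fabp4 level is a description. Its median depth was 19687, 10366 and 7595 UMIs in Uninjured and at 3 and 7 dpi. The remaining mesenchymal cells had medians of 9159, 5948 and 3336. The cycling gate held 2 of the 6, 6 of the 14 and 7 of the 19 cells. Of the remaining cells it held 74 of 8403, 671 of 6151 and 1091 of 11028. Whether some droplets held 2 cells was not tested. In the 6 Uninjured cells Pparg was at 224 CPM (149 to 323) against 1.67 (1.40 to 1.98) in the remaining 8403, and Cebpa at 687 (550 to 849) against 15.1 (14.2 to 16.0). Plin1, the droplet protein of adipocytes, was at 392 CPM in these cells against 0.114 in the others. Cebpd was lower in them, with 535 CPM (415 to 680) against 2404. The 14 cells at 3 dpi had 211 CPM of Pparg, 3568 of Lpl and 241 of Plin1. The 19 cells at 7 dpi had less of each, with 37.8 CPM of Pparg, 895 of Lpl and 25.2 of Plin1. Cidec was at 0 UMIs in all of these cell sets.

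Without the cells of at least 10 Fabp4 UMIs, the remaining mesenchymal cells had 2.56, 2.52, 6.35 and 27.1 CPM of Fabp4. The ratio of 1 dpi to Uninjured was then 0.983. At 3 dpi the level stood 2.52-fold above 1 dpi in place of 10.2-fold. At 7 dpi it stood 10.6-fold above Uninjured in place of 3.16-fold. The cut was made on Fabp4 itself, so the ratios had to move with the UMIs removed. It took 615 of 817 Fabp4 UMIs in Uninjured, 0 at 1 dpi, 1084 of 1438 at 3 dpi and 335 of 1967 at 7 dpi. Median mesenchymal depth was 9160 UMIs in Uninjured and 3343 at 7 dpi, so 10 UMIs were not the same level in each library. The share of mesenchymal cells with a Fabp4 UMI after thinning to 1000 UMIs was 0.333%, 0.423%, 0.731% and 3.64% (3.29 to 4.02), and 1.56%, 1.77%, 3.23% and 8.20% before thinning. In B cells, a class not known for Fabp4, the thinned shares were 0.971%, 0.300%, 0% and 0%, with exact upper bounds of 3.46%, 0.766%, 1.09% and 2.11%. The share at 7 dpi was above its bound, and the other 3 could not be told from the B cell share at this depth. Summed levels separated the classes earlier, since B cells at 3 dpi had 0 Fabp4 UMIs, with an upper bound of 4.08 CPM, against 6.35 CPM (5.70 to 7.04) in mesenchymal cells without the cells of at least 10 UMIs. Median depth at 7 dpi was 3343 UMIs for mesenchymal and 1439 for B cells.

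Adipoq (chr16:23146536-23158028) was at 76, 38, 74 and 4 UMIs in mesenchymal cells, or 0.962, 1.07, 1.32 and 0.0663 CPM. The level at 7 dpi was 14.5-fold below Uninjured (5.43 to 54.6), a ratio of 0.0690 that became 0.358 without the cells of at least 10 Fabp4 UMIs. These UMIs sat in 7, 10, 14 and 4 cells. The cell and doublet filters removed Adipoq UMIs in Uninjured and at 3 dpi only. Over all barcodes Adipoq had 196, 53, 112 and 7 UMIs, of which 131, 53, 80 and 7 were in kept cells. Over all classes, 18 kept cells had at least 3 Adipoq UMIs, with 6 in Uninjured, 5 at 1 dpi, 7 at 3 dpi and 0 among 20305 cells at 7 dpi.

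These 18 cells are described by whether Fabp4 was detected. In 8 of them Fabp4 was present with 2 to 381 UMIs, Pparg was found in 7, Plin1 in 6 and Plin2 in 7, and the median depth was 24208 UMIs. Of these 8 cells, 3 passed the gate for cycling cells (at least 3 of 5 markers such as Mki67 and Top2a). The richest had 55 Adipoq, 163 Fabp4, 189 Lpl, 19 Plin1 and 4 Cidec UMIs, was the only one with Cidec, and was left unassigned because 5 mesenchymal and 4 adipocyte markers were present together. In the other 10 cells Fabp4 and Plin1 were at 0, Pparg had 1 UMI in 1 cell, and Plin2 was at no more than 1 UMI, although Adipoq reached 16 UMIs. Their median depth was 6439 UMIs, 9 of the 10 were mesenchymal by the gate, and all 5 of the 1 dpi cells belonged to them. High depth can mark 2 cells in 1 droplet, and cells with the highest Scrublet scores had been removed before these counts.

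Within the mesenchymal gate, cells with markers of interstitial fibroblasts (Smoc2, Col15a1, Hsd11b1, Mme and Cxcl14) and of adventitial fibroblasts (Pi16, Dpp4, Sema3c, Anxa3 and Cd55) differed in most of the 10 genes. The interstitial subset held 4070, 2014, 2482 and 1704 cells and the adventitial subset 3637, 1206, 1350 and 1109. A cell needed 2 of 5 markers and more than for any other subset. Mesenchymal cells in no subset numbered 595 in Uninjured and 4402 at 7 dpi. The median depth of all mesenchymal cells was 9160 UMIs in Uninjured and 3343 at 7 dpi, and the part of depth in subset membership was not tested.

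**Figure D3:**
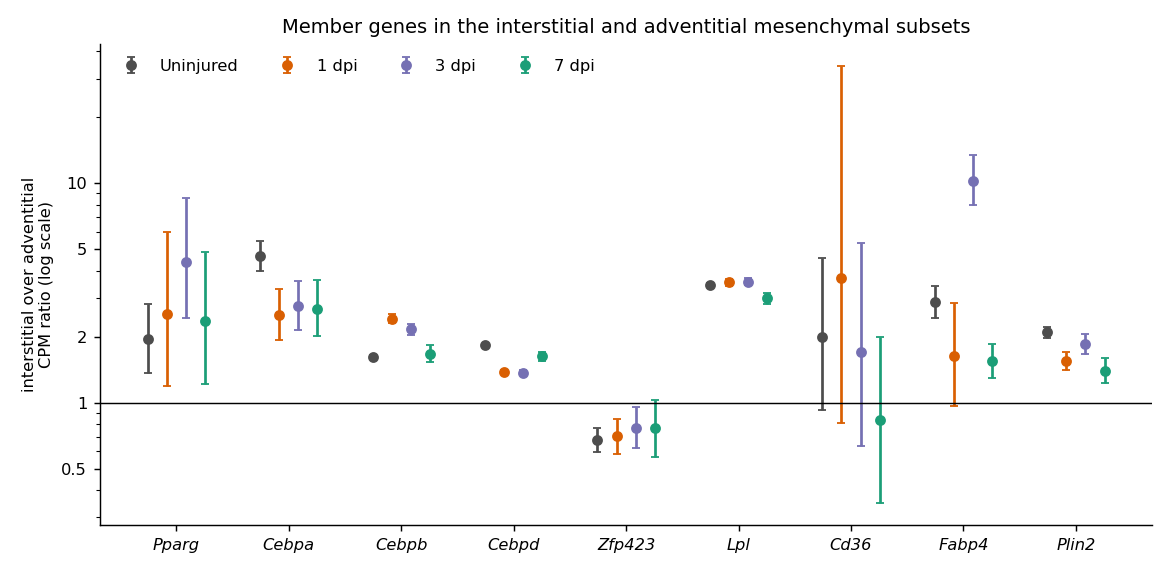
Points give the CPM of the interstitial subset over that of the adventitial subset (log axis) in each library, with exact 95% intervals (counting error only). Lpl lies near 3 to 4 in all libraries, Zfp423 lies below 1, and Cd36 has intervals that span 1. Adipoq is left out because adventitial cells had 0 UMIs in 2 libraries.

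Lpl was at 1298 CPM in interstitial and 377 in adventitial cells of Uninjured muscle. The ratio was 3.44, 3.54, 3.57 and 2.99 over the libraries, higher in interstitial cells in 4 of 4. Cebpa was 4.66-fold higher in interstitial cells of Uninjured (3.997 to 5.45) and 2.51- to 2.77-fold higher after injury. Pparg ratios were 1.95, 2.54, 4.39 and 2.37, on 9 to 49 adventitial UMIs. Cebpb (1.62 to 2.42), Cebpd (1.37 to 1.83) and Plin2 (1.40 to 2.10) were also higher in interstitial cells of every library.

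Zfp423 was the one gene lower in interstitial cells in all 4 libraries, at 12.0 against 17.7 CPM in Uninjured. Its ratios were 0.678, 0.705, 0.769 and 0.765, and the interval at 7 dpi reached past 1. Fabp4 ratios ranged from 1.55 to 10.3, the highest at 3 dpi, where 1 interstitial cell held 381 of the 1012 interstitial UMIs, and the interval at 1 dpi (0.966 to 2.86) reached below 1.

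The makeup of the gate differed between libraries, with 82 cells carrying tendon markers such as Tnmd in Uninjured and 2407 at 7 dpi, and 0 and 1088 cells with the panel led by Lrrc15 and Tnn. Within the interstitial subset Lpl was at 1298 CPM in Uninjured and 532 at 7 dpi, 2.44-fold lower (2.37 to 2.52). Within the adventitial subset it was at 377 and 178 CPM, 2.12-fold lower (2.01 to 2.24), beside 4.81-fold in the gate as a whole. Cebpd was lower by 5.38-fold in interstitial and 4.79-fold in adventitial cells, and Cebpb by 3.39- and 3.50-fold. The direction was the same within both subsets as in the whole gate, with a smaller size for all 3 genes. Cebpa differed between the subsets, being 1.20-fold lower at 7 dpi than in Uninjured in interstitial cells (1.03 to 1.41) and 1.44-fold higher in adventitial cells (1.07 to 1.92), a difference that was not tested. The Lrrc15 and Tnn subset had 68.8 CPM of Lpl, 207 of Cebpd and 84.2 of Cebpb at 7 dpi, each below the whole gate. Mesenchymal cells outside the cycling gate had Lpl 4.50-fold lower at 7 dpi than in Uninjured.

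**Figure D4:**
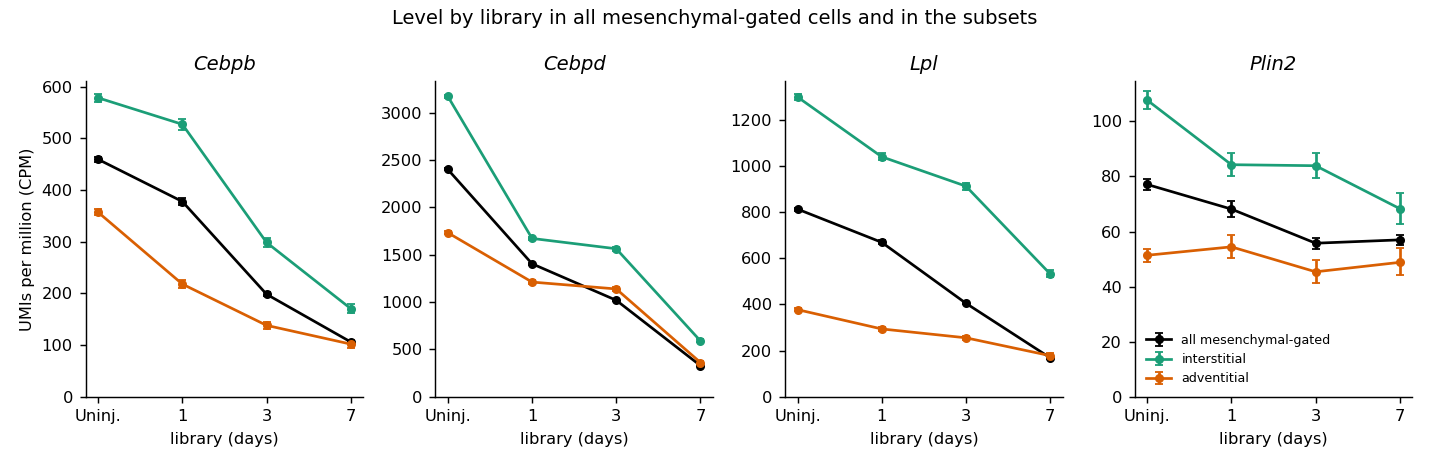
CPM of Cebpb, Cebpd, Lpl and Plin2 by library in all mesenchymal-gated cells (black), the interstitial subset (green) and the adventitial subset (orange), with exact Poisson 95% intervals (counting error only). Interstitial cells lie highest in all panels, and the level of the whole gate moves from between the 2 subsets in Uninjured to near the adventitial level by 7 dpi for Cebpb, Cebpd and Lpl.

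At 7 dpi the 4206 chondrocyte-gated cells, with 5 or more of 8 cartilage markers such as Col2a1 and Acan, could be set beside mesenchymal cells of the same library. The split did not fall at a gap in the marker counts. Of the 11047 mesenchymal cells at 7 dpi, 1036 had 4 cartilage markers, 1446 had 3 and only 2720 had 0. The mesenchymal sums at 7 dpi therefore include many cells with cartilage transcripts. Lpl was lower in chondrocyte-gated cells, at 64.7 CPM (61.4 to 68.1) against 169 in the mesenchymal gate, a ratio of 0.383 (0.362 to 0.404). Cebpa (7.22 against 11.01 CPM), Zfp423 (6.70 against 9.57) and Plin2 (41.2 against 57.0) were lower as well. Cebpb was at 126 against 106 CPM, Cebpd at 372 against 329 and Fabp4 at 38.8 against 32.6, each higher by less than 1.5-fold. Pparg had a ratio of 1.09 with an interval from 0.794 to 1.47.

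**Figure D5:**
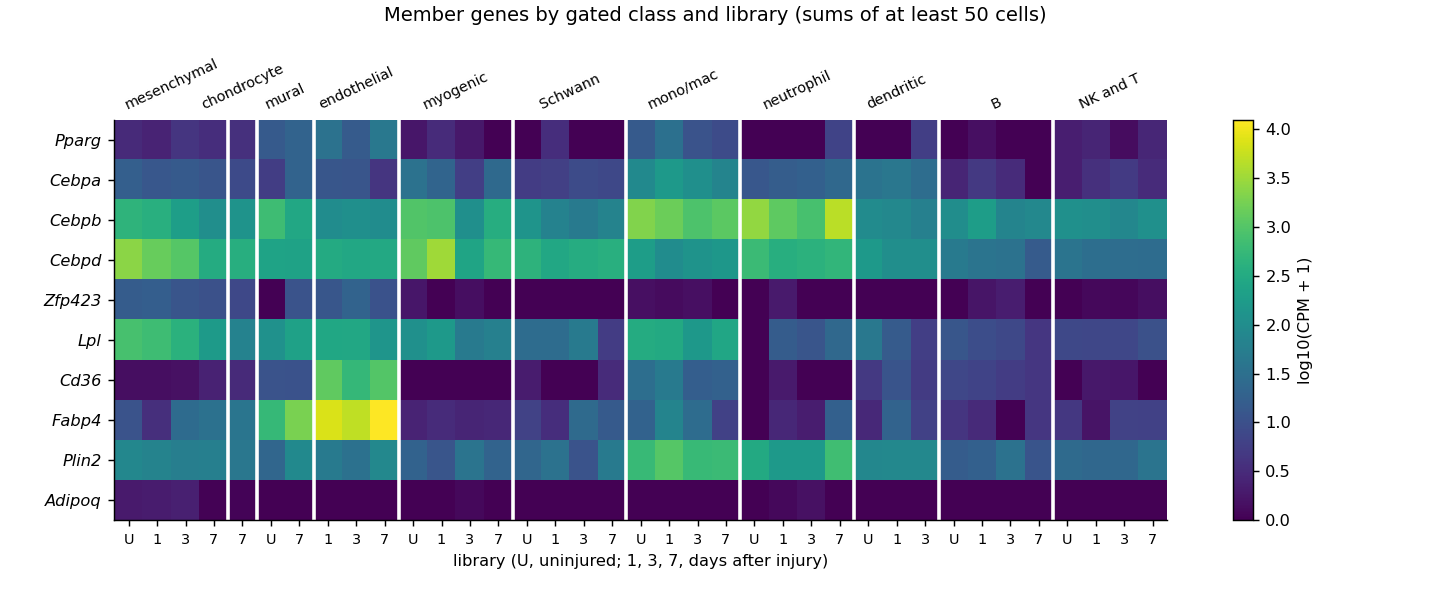
Colour gives log10(CPM + 1) of each gene (rows) in each class and library with at least 50 cells (columns, with U for Uninjured and 1, 3 and 7 for days after injury), mast cells excepted. The 54 mast cells at 3 dpi are not drawn and had the highest Cebpa of that library (186 against 107 CPM in monocytes and macrophages). Fabp4 and Cd36 are brightest in endothelial cells at 1, 3 and 7 dpi (Uninjured had too few), Plin2 in monocytes and macrophages up to 3 dpi and in neutrophils at 7 dpi (697 against 623 CPM, overlapping intervals), and Adipoq is near 0 everywhere.

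Set against other classes, several lipid genes had their highest levels outside the mesenchymal gate. Endothelial cells had Fabp4 at 4271, 7266, 5098 and 12480 CPM and Cd36 at 382, 1249, 540 and 1017 CPM, with 23 cells in Uninjured. Mural cells, the pericytes and smooth muscle of vessels, had Fabp4 at 556 CPM in Uninjured and 1884 at 7 dpi. The summed endothelial markers were at 252 and 249 CPM in those mural sums, from 3 and 5 of 8 genes with Cdh5, Kdr and Cldn5 at 0 in both, against 8136 and 6244 CPM in endothelial cells. The part of endothelial transcripts in the mural Fabp4 values was not tested. The genes most like Fabp4 over 38 sums of class and library (Pearson correlation of log2(CPM + 10), a description) were Esam (0.961), Epas1 (0.941) and Cyp4b1 (0.940). Those most like Cd36 were Flt1 (0.951), Kank3 (0.943) and Cldn5 (0.939), and those for Pparg were Fabp4 (0.843), Cd36 (0.817) and Nxpe4 (0.801). Esam and Cldn5 belong to the endothelial marker panel, and the sums share libraries. For Cebpa they were Ccl9 (0.833), Neat1 (0.818) and Slc7a8 (0.785), for Cebpb A530013C23Rik (0.874), C5ar1 (0.808) and Gm5150 (0.797), and for Cebpd Cask (0.840), Acadsb (0.826) and Agap1 (0.825). For Zfp423 they were Pcdh19 (0.906), Plat (0.903) and Pcdhgb6 (0.899), and for Lpl Cd302 (0.845), Nupr1 (0.838) and Iqsec2 (0.824). Those for Adipoq, whose mesenchymal levels lay under the 10 CPM added before the log, were Cxcl13 (0.913), Serpina3c (0.910) and Lvrn (0.899). The mesenchymal levels of Pparg and Cd36 lay under those 10 CPM as well, so differences among mesenchymal sums weigh little in their lists.

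Monocytes and macrophages carried more Pparg, Cebpa, Cebpb, Cd36 and Plin2 per UMI than mesenchymal cells in all 4 libraries. Plin2 was at 566 (534 to 599), 1054 (1037 to 1072), 582 (560 to 606) and 623 (581 to 666) CPM there, which is 7.34 to 15.5 times the mesenchymal level. The library at 1 dpi was highest, and the intervals of Uninjured and 3 dpi overlapped. Cebpb was at 2070, 1480, 893 and 1145 CPM, so 3 dpi was its lowest point rather than 7 dpi. The immediate early and dissociation-responsive genes were also lowest there at 3 dpi, with summed levels of 31929, 23632, 20870 and 23589 CPM, and their part in the Cebpb values was not tested. Pparg was at 13.4, 31.2, 10.2 and 7.52 CPM, with a peak at 1 dpi 2.33-fold above Uninjured (1.59 to 3.55). Fabp4 was at 18.6, 69.6, 27.5 and 5.26 CPM, also highest at 1 dpi. Genes most like Plin2 across the sums were Lst1 (0.931), Sirpb1c (0.916) and Gm21188 (0.907). In some libraries other classes stood above monocytes and macrophages for Pparg and Cebpb. Endothelial cells had 34.1, 13.9 and 42.9 CPM of Pparg at 1, 3 and 7 dpi, on 12, 5 and 13 UMIs. Their intervals overlapped those of monocytes and macrophages at 1 and 3 dpi. Mural cells had 13.4 CPM of Pparg in Uninjured and 19.3 at 7 dpi, on 12 and 36 UMIs. Their intervals overlapped those of monocytes and macrophages in both libraries. Neutrophils had 2715 CPM of Cebpb in Uninjured and 4750 at 7 dpi. Myogenic cells had 971, 909, 109 and 356 CPM of Cebpb, and mural cells 669 in Uninjured and 283 at 7 dpi. Cebpd was highest in mesenchymal cells in Uninjured and at 3 dpi. Myogenic cells stood above them at 1 dpi (3266 against 1405 CPM) and at 7 dpi (547 against 329). At 7 dpi neutrophils (497), Schwann cells (386) and chondrocytes (372) also had more Cebpd than mesenchymal cells.

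By the same 2-fold rule, 2 of the 8 genes that had enough UMIs in monocytes and macrophages (Pparg and Fabp4) were higher and 0 lower at 1 dpi than in Uninjured, beside 16.1% and 4.86% of 10706 genes. Between 1 and 3 dpi 0 of the 8 were higher and 4 (Pparg, Lpl, Cd36 and Fabp4) lower, beside 5.88% and 4.55%. From 3 to 7 dpi 0 were higher and 1 (Fabp4) lower, beside 2.07% and 10.7%. At 7 dpi against Uninjured 0 were higher and 1 (Fabp4, on 7 UMIs) lower, beside 3.45% and 2.39%. Zfp423 and Adipoq did not reach 20 UMIs. Lpl was at 335, 307, 149 and 266 CPM, below mesenchymal cells until 3 dpi and 1.58-fold above them at 7 dpi (1.41 to 1.75).

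Detection per cell was compared in Uninjured muscle. With every cell thinned to 1000 UMIs, 3 of the 10 genes (Cebpb, Cebpd and Lpl) were found in at least 10% of mesenchymal cells, 4 (Cebpb, Cebpd, Lpl and Plin2) in monocytes and macrophages, and 5 (Cebpb, Cebpd, Lpl, Cd36 and Fabp4) in the 23 endothelial cells. The share of all genes that pass this threshold is not given for any class. The counts therefore describe the 10 genes only and cannot be read as many or few.

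Further genes of the pathway were taken from gene lists, and those named are among the members of each list with the largest ratio between time points. The lists were chosen with earlier results of these data known, so their counts are a description. Mesenchymal values are for the whole gate, whose makeup differed between libraries, and the part of that makeup was not tested. Of 15 adipogenic transcription factors, 0 were at least 2-fold higher and 9 at least 2-fold lower in mesenchymal cells at 7 dpi than in Uninjured, beside 18.6% and 11.4% of all genes, respectively. The median log2 ratio of the list was -1.23, against 0.08 over all genes. Klf15, a glucocorticoid-induced activator of Pparg, was at 9.97, 7.69, 4.22 and 1.01 CPM, and the lipid sensor Nr1h3 at 24.0, 25.5, 17.3 and 4.08 CPM. Klf9 was at 477, 642, 444 and 105 CPM. Of 14 inhibitors of adipogenesis, 2 were higher and 5 lower at 7 dpi, beside 18.6% and 11.4% of all genes, with a median of -0.49. Dlk1, the preadipocyte factor, had its lowest level at 3 dpi (28.4, 8.74, 4.48 and 39.5 CPM), and the Wnt ligand gene Wnt10b was at 20.8, 12.6, 6.22 and 5.77 CPM.

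Lipid uptake genes were divided at 7 dpi, with 4 of 12 tested higher and 4 lower, beside 18.6% and 11.4%. Fabp5, the epidermal relative of Fabp4, was at 13.4, 8.31, 90.6 and 279 CPM, and Fabp3, the heart form, at 0.557, 0.594, 0.607 and 11.6 CPM. The lipoprotein receptor gene Vldlr was among those lower, at 101, 136, 47.0 and 13.3 CPM. Of 12 lipid droplet and lipolysis genes tested, 0 were higher and 4 lower at 7 dpi, beside the same 18.6% and 11.4%. G0s2, an inhibitor of the triglyceride lipase, was at 364, 125, 60.4 and 52.2 CPM. Of 10 fatty acid synthesis genes 0 were higher, beside 18.6% of all genes, and 1 was lower, near the 11.4% of all genes. This was Scd1, at 101, 105, 80.0 and 24.7 CPM. Of 3 testable adipocyte secreted genes, Serpina3c was lower (21.7, 16.5, 14.1 and 1.81 CPM) and Rbp4 higher (38.6, 49.6, 43.1 and 110 CPM), beside 11.4% and 18.6% of all genes.

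Among the remaining PPAR and C/EBP genes, 1 of 4 tested was at least 2-fold lower at 7 dpi (Ppara, 1.33, 1.67, 0.857 and 0.232 CPM) and 0 were higher, beside 11.4% and 18.6% of all genes. Cebpg was at 58.0, 58.2, 51.4 and 33.6 CPM. In monocytes and macrophages, 3 of 8 lipid handling genes were higher and 1 lower at 1 dpi than in Uninjured, beside 16.1% and 4.86% of all genes. Gpnmb, a gene of lipid-loaded macrophages, was at 33.4, 210, 167 and 16.5 CPM, and the cholesterol exporter Abca1 at 35.3, 58.0, 177 and 35.3 CPM.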

How the data were processed

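UMI counts per gene and cell from 4 libraries were analysed as deposited. The authors aligned reads with Cell Ranger 5.0.0 (STAR); their processing notes name mm10 and Seurat 3.1.1, and whether the deposited counts precede the down-sampling named in the methods is not stated. Positions came from GENCODE M21 on GRCm38. Cells within 2 SD of the mean log10 UMIs and log10 genes of their library and with at most 10% mitochondrial UMIs were kept, and the 7.5% with the highest Scrublet score (scanpy 1.11.5) were removed in place of DoubletFinder. A class needed at least 3 of 8 detected markers and 2 more than any other class. The mesenchymal and cartilage panels competed as a single class, under the larger of their 2 counts. Winning cells with at least 5 cartilage markers were called chondrocyte and the rest mesenchymal. A mesenchymal cell therefore needed no lead over the cartilage panel, and 3 or 4 cartilage markers could meet the minimum. Cells that met no class numbered 359 to 2868 per library and were left out. CPM are summed counts over all counts of the class, and levels, shares and ratios have exact Poisson, Clopper-Pearson and conditional binomial limits at 95% (scipy 1.17.1). With 1 library per time point no p-value was computed. TMM factors came from edgeR 4.0.16 in R 4.3.3. Named genes were the 10 members and up to 4 genes per list with at least 100 UMIs in a library and the largest ratio between time points, plus the 3 genes most like each member; 1 gene that the rule names is not reported here. The members and lists were chosen with earlier results of these data known. Total counts were 91146335 to 129007669 UMIs per library, and the width of an interval depends on the UMIs of the gene.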

Additional observations from a re-analysis of the deposited data

Results flagged for a closer look

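Opposite changes in mesenchymal cells and in monocytes and macrophages, each of at least 2-fold, were found for Pparg and Fabp4, and the difference between the classes was not tested because each time point had 1 library. Pparg at 3 dpi was 2.14 times its 1 dpi level in mesenchymal cells and 0.327 times in monocytes and macrophages. Fabp4 at 1 dpi was 0.243 times its Uninjured level in mesenchymal cells and 3.74 times in monocytes and macrophages. From 1 to 3 dpi the ratios for Fabp4 were 10.2 and 0.395, and from Uninjured to 7 dpi they were 3.16 and 0.282. The monocyte and macrophage ratio at 7 dpi rests on 7 Fabp4 UMIs. Without the cells of at least 10 Fabp4 UMIs, the mesenchymal ratio of 1 dpi to Uninjured was 0.983. The mesenchymal ratios were then 2.52 from 1 to 3 dpi and 10.6 from Uninjured to 7 dpi. Those cells were removed on Fabp4 itself and only from the mesenchymal gate, so these values do not test the opposite changes. Pparg in mesenchymal cells at 3 dpi had a log2 ratio to 1 dpi of 1.10, 0.72 without the 14 cells of at least 10 Fabp4 UMIs and 0.33 with cells thinned to 1000 UMIs.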

How the results depend on the processing

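No paired analysis was possible because each time point had 1 library, and leaving out a replicate was not possible for the same reason. Counts of the 10 genes in mesenchymal cells changed as follows. Genes higher at 1 dpi than in Uninjured numbered 1 in place of 0 with the SD limit on linear counts, with the study's gate (UMIs of Prrx1 and Col1a1 and none of Ptprc), with the mean of CPM per cell, and without cells of at least 10 Fabp4 UMIs (an alternative chosen after the data were seen). Of all genes, 8.72%, 8.45%, 9.56% and 9.46% were higher with these settings, in that order, in place of 9.38%. Genes lower numbered 0 in place of 1 with cells thinned to 1000 UMIs and without the Fabp4 cells, and 2 with a fold threshold of 1.5. Of all genes, 3.43% were lower with thinning, 5.36% without the Fabp4 cells and 12.2% at 1.5-fold, in place of 5.39%. Genes higher at 3 dpi than at 1 dpi numbered 1 in place of 2 with no cell filter, doublets left in and the study's gate. The same count was found with thinning and without the Fabp4 cells. Genes lower at 3 dpi than at 1 dpi numbered 2 in place of 0 at 1.5-fold. Of all genes, 16.4% were lower at 1.5-fold, in place of 5.99%, and 4.17% were higher with thinning, in place of 7.22%. The share higher was 7.26% with no cell filter, 7.26% with doublets left in, 8.78% with the study's gate and 7.18% without the Fabp4 cells. Genes higher at 7 than at 3 dpi numbered 0 in place of 1 with a gate margin of 3 or a minimum of 100 UMIs, and 2 with the study's gate, thinning, the mean of CPM per cell and without the Fabp4 cells. Genes higher at 7 dpi than in Uninjured numbered 1 in place of 2 with a minimum of 100 UMIs. Genes lower at 7 than at 3 dpi numbered 2 to 4 around 3, with Cebpb added at 1.5-fold and with the mean of CPM per cell, Cebpb in place of Adipoq with thinning, and Adipoq lost with a minimum of 100 UMIs. Genes lower at 7 dpi than in Uninjured numbered 3 to 5 around 4, with Zfp423 added at 1.5-fold and Adipoq lost with thinning, with a minimum of 100 UMIs and without the Fabp4 cells. The shares of all genes at 7 dpi also moved with these settings. At 1.5-fold, 16.97% were lower than at 3 dpi and 19.01% lower than in Uninjured. With thinning, 10.05% were higher and 8.38% lower than at 3 dpi, and 10.2% were lower than in Uninjured. With a minimum of 100 UMIs, 7.97% were higher and 6.36% lower than at 3 dpi. Against Uninjured, 14.01% were higher and 10.5% lower with that minimum. With a gate margin of 3, 11.3% were higher than at 3 dpi, and with the study's gate 12.5%. With the mean of CPM per cell, 13.2% were higher and 9.79% lower than at 3 dpi. Without the Fabp4 cells, 11.9% were higher than at 3 dpi and 11.4% lower than in Uninjured. The causes were not tested.

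Without thinning, 6 in place of 3 genes reached 10% of Uninjured mesenchymal cells, and with thinning to 500 UMIs 3 in place of 5 reached it in endothelial cells. These detection counts too have no share over all genes beside them. Of 40 ratios under 12 alternatives each, 0 called ratios changed direction, and 164 of 480 values fell outside the counting interval of the main value. Ratios under 2-fold did change direction. At 1 dpi against Uninjured, Pparg was 0.754 and became 2.47 with thinning, on fewer than 20 UMIs in each thinned sum. In the same comparison Cd36 was 0.948 and became 2.12 with the study's gate. Adipoq was 1.12 there and ranged from 0.535 (gate margin of 3) to 7.71 (without the Fabp4 cells). The lower level at 7 dpi than in Uninjured held in all 12 for Cebpb (ratio 0.216 to 0.267), Cebpd (0.126 to 0.158) and Lpl (0.173 to 0.232). TMM moved the median log2 ratio of all genes at 1 dpi against Uninjured from 0.16 to -0.04. With the mean of CPM per cell, genes higher and lower at 3 against 1 dpi were 6.25% and 2.59%, beside 7.22% and 5.99%. Depth limits Pparg, Cd36 and Adipoq most, since each had at most 183 UMIs in a mesenchymal sum.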
